A study of Mus musculus with 6 samples.

Results

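The genes described here are 9 cell adhesion genes read in mesenchymal cells of the embryonic mouse small intestine: the classical and related cadherins Cdh2, Cdh3, Cdh6, Cdh11 and Cdh13, the immunoglobulin-type adhesion proteins Ncam1 and Alcam, and the catenins Ctnnb1 and Ctnna1. They were taken by name, and all 9 were found among the 24568 genes of the deposited matrix. Intestines of C57/BL6 embryos carrying Pdgfra-H2BGFP, a nuclear green fluorescent protein reporter of Pdgfra, were cut into pieces 2.5 mm long. Every age is a pool of intestines: 2 for each of the ages E18.5, E16.5 and E15.5, 3 for E14.5 and 4 for E13.5. Cells were tagged with lipid-bound barcodes (MULTI-seq), pooled and captured on 10x Chromium chips with 3' chemistry. The 6 samples fall into 4 groups. E15.5 with E16.5 gave 2 lanes of all live cells and 1 sample of enriched cells, and E13.5 with E14.5 and E18.5 gave the same layout. All live cells were negative for DAPI and for Ter119, a red cell antigen. The enriched samples held cells positive for CD31, CD45 or Epcam, or cells with high Pdgfra reporter fluorescence. Lanes of a group are wells filled from a shared suspension, so they are technical repeats.

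Cadherins are membrane proteins that bind cadherins of a neighbouring cell in the presence of calcium. The tail of a classical cadherin holds beta-catenin (Ctnnb1), which holds alpha-catenin (Ctnna1), the link to actin filaments, and beta-catenin also carries WNT signals to the nucleus. Cdh2 (N-cadherin) is known from nervous tissue, muscle and mesenchyme, Cdh11 (OB-cadherin) from mesenchyme, and Cdh3 (P-cadherin) from epithelia. Cdh13 (T-cadherin) has a lipid anchor in place of the catenin-binding tail. Ncam1 and Alcam bind without calcium through immunoglobulin domains. In the gut wall such contacts join fibroblasts, muscle precursors and the PDGFRA-high cells that lie under the epithelium.

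The matrix held 13127 cells, of which 12630 passed the filters. Cell barcodes ended in 1 of 6 suffixes, and no label ties a suffix to a sample. The suffixes were therefore used as technical barcode sets, named A1, A2 and A3 for the suffixes -1, -2 and -3 with ending _1, and B1, B2 and B3 for the same with ending _2. They are not replicates, so no p-value is given, and the 95% intervals below cover counting error only. The kept sets held 1177 to 2514 cells with median depths of 3548 to 13574 unique molecular identifiers (UMIs) per cell. In all, 22 barcode sequences occurred in more than 1 set, in 44 cells. By the naming rule, 30.5% of cells fell in clusters called PDGFRA-high mesenchyme and 67.2% in other mesenchyme. The second name needs only 3 mesenchyme markers at 100 CPM. Every cluster met that, and a glia-like cluster had 7, so the rule does not separate mesenchyme from other cells. The 10 mesenchyme markers were detected in all 6 sets and summed to 4598 to 8200 UMIs per 1000000 UMIs (counts per total, CPM). PDGFRA-high clusters made up 95.1% of A3 and 87.4% of B3, and 4.51% to 12.6% of the other sets. A3 and B3 thus held other mesenchymal cells than their partner sets, and for every gene below fewer or more cells of a class cannot be told apart from less or more RNA per cell in the whole set.

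The promoters of 2 members are printed here because Cdh6 and Alcam, unlike the catenin that is the other member with an entry, differed widely in level between cell clusters, as described below. Capitals mark the E-box, the hexamer CANNTG that basic helix-loop-helix and zinc finger repressors of cadherin genes are known to bind. The sequences are 250 bases upstream of a RefSeq start in build GRCm38.p6, read 5' to 3' on the minus strand.
Cdh6 chr15:13173676-13173925: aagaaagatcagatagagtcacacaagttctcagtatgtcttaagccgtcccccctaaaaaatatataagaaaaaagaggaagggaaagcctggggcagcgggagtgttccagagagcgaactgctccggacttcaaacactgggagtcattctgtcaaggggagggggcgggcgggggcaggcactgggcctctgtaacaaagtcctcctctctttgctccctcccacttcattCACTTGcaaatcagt
Alcam chr16:52453082-52453331: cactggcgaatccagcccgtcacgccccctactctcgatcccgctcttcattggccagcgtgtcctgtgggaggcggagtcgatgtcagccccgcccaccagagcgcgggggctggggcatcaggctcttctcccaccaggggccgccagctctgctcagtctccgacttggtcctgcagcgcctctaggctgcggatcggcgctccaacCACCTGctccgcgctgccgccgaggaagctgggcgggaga
Each window held 1 E-box and neither TATAAA nor TGAGTCA, the AP-1 site, on either strand. Of 32851 promoters in the table, 66.2% held an E-box, 12.4% TATAAA and 4.46% TGAGTCA, so an E-box is the usual case. The Alcam window was richer in G and C (69.2%) than the Cdh6 window (51.2%), and the median promoter was at 52.4%. The Alcam window ends at the start of its RefSeq gene (chromosome 16, 52248996 to 52453081), while the Cdh6 window lies inside the span of its gene (chromosome 15, 13028699 to 13176407), whose models have more than 1 start. The table matched 3 of the 9 members, the third being Ctnnb1.

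Cdh2 was lower in the suffix -3 set of each ending. Its level was 46.2 CPM (43.8 to 48.6) in A1, 46.3 (43.9 to 48.9) in A2 and 18.4 (15.7 to 21.4) in A3. In ending B it was 38.1 (34.3 to 42.1) in B1, 28.7 (25.6 to 32.0) in B2 and 15.1 (12.6 to 18.0) in B3. Within A, the intervals of A1 and A2 overlapped and A3 lay below both, and within B the order from high to low was B1, B2 and B3, with no overlap. The log2 ratio of the -3 set over the pooled -1 and -2 sets was -1.33 (-1.56 to -1.11) in ending A and -1.13 (-1.42 to -0.85) in ending B. Set 1 over set 2, the spread between partner sets, was -0.01 in A and 0.41 (0.19 to 0.63) in B. A gene was called when it differed at least 2-fold, in the same direction, from the -1 set and from the -2 set, among genes with a mean of at least 10 CPM over the 3 sets. Cdh2 was called lower in A, and in B it missed the call because its log2 ratio against B2 was -0.92.

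Cdh2 was found in fewer cells of the -3 sets too. With each cell thinned to 2000 UMIs, a Cdh2 UMI was present in 7.77%, 7.78% and 3.24% of cells in A1, A2 and A3, and in 6.29%, 5.23% and 3.12% in B1, B2 and B3. Without thinning the shares were 35.0%, 37.3% and 11% in A, and 12.9%, 10.7% and 5.16% in B, where depth differs between sets. Between 1 and 13 kept cells per set were too shallow for the thinning. Marker lists of other states moved with Cdh2, and their part in its difference was not tested. Summed over 9 cycling markers, all detected in each set, levels were 1950, 1846 and 932 CPM in A1, A2 and A3, and 1475, 1356 and 462 in B1, B2 and B3. Summed over 6 glia markers they were 26.8, 30.7 and 12.4 CPM in A, and 25.1, 18.6 and 6.34 in B, with Foxd3 at 0 in B3. The sum of 6 neuron markers was 39.1, 41.0 and 7.21 CPM in A and 96.5, 99.7 and 5.12 in B, with 4 of the 6 detected in B3. The sum of 8 smooth muscle markers was 1863, 1926 and 891 CPM in A and 1467, 1485 and 555 in B, and that of 5 pericyte markers was 325, 322 and 177 in A and 198, 196 and 127 in B.

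Cdh2 stood out in some of the dividing cells and in a small group of glia-like cells. Thinned cells with a UMI of the cycling genes Mki67 or Top2a held Cdh2 in 9.96% (8.14 to 12) of cases in A2, against 5.90% (4.59 to 7.45) of the other cells. In B1 the shares were 9.27% (7.23 to 11.7) and 4.89% (3.85 to 6.10). The direction was the same in A1, A3 and B2, with overlapping intervals, and opposite in B3 (2.36% against 3.21%, overlapping). Among clusters of at least 50 cells, Cdh2 was highest in each ending where Cdc6, a replication gene, and Slfn9 were leading genes. The levels were 78.6 CPM in A and 61.4 in B. The lowest were 6.52 CPM in the Il1rl1/Npnt cluster of A and 8.49 in the Ajap1/Dsp cluster of B. High Cdh2 was not confined to cycling clusters. In A the Hist1h2bc/Klhl6 cluster, with 0 cycling markers raised, was at 60.9 CPM, and the cycling Ube2c/Aurka cluster was at 45.0. In B the Agt/Cxcl16 cluster, also with 0 raised, was at 30.2 CPM, and the cycling Hbb-y/Ube2c cluster was at 29.7. In ending B, 36 cells with Sox10 among their leading genes formed a cluster named glia-like from its markers, 21 from B1, 15 from B2 and 0 from B3. Cdh2 was at 243 CPM (190 to 306) in them, and they held 10.7% of the Cdh2 UMIs of B1 and 9.66% of those of B2. Without them Cdh2 was at 34.5 CPM in B1 and 26.2 in B2, still above the 15.1 of B3.

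**Figure D1:**
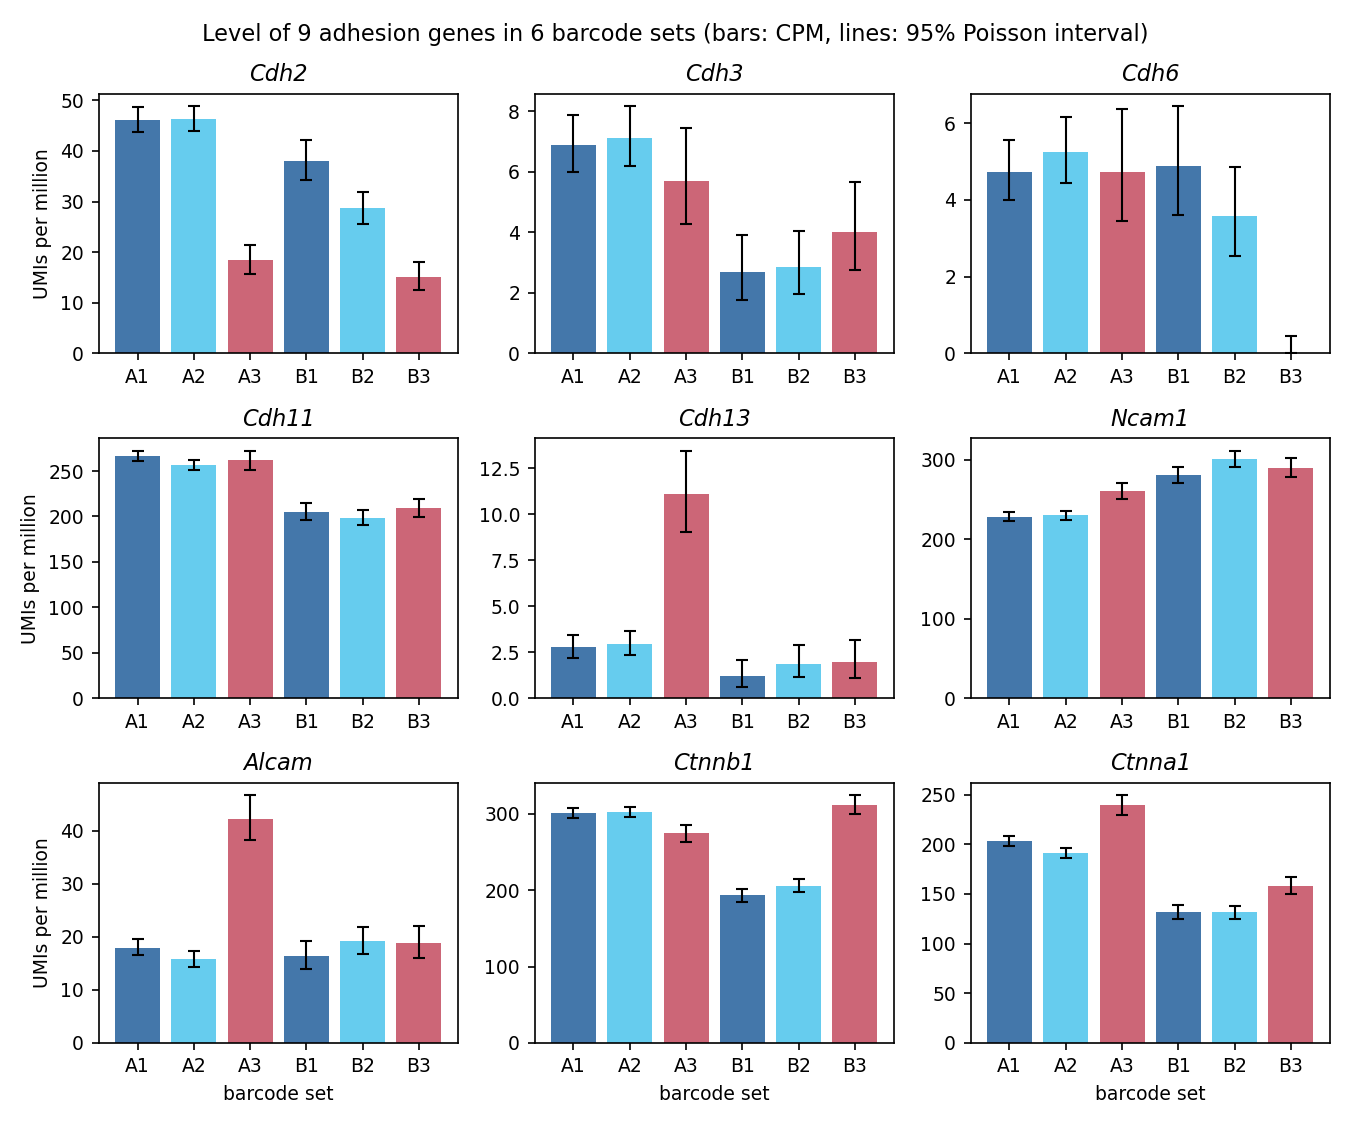
Level of each of the 9 genes (y axis, CPM, from 0) in the 6 barcode sets (x axis), as bars with 95% Poisson intervals as lines. Cdh2 is lowest within each ending in the -3 set (18.4 and 15.1), Cdh11 hardly differs within an ending, and Alcam is higher in A3 (42.3) than in A1 and A2.

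The Cdh2 difference was smaller inside the cell classes. Within PDGFRA-high mesenchyme the log2 ratio of the -3 set over the other sets was -1.17 (-1.52 to -0.82) in A, where levels were 16.7 against 37.5 CPM, and -0.59 (-1.12 to -0.04) in B, with 14.8 against 22.3 CPM. In the remaining mesenchyme it was -0.27 (-0.86 to 0.26) in A, on 58 cells of A3, and -0.80 (-1.49 to -0.19) in B. Different clusters filled the PDGFRA-high class of ending A. A cycling cluster led by Cd74 and Apela gave 116 of its 168 cells in A1 and 54 of 94 in A2, but 89 of 1119 in A3. Other mesenchyme of ending B was filled unequally too. Its Ajap1/Dsp cluster, the lowest of B in Cdh2 at 8.49 CPM, gave 103 of 262 cells in B3. In B1 that cluster gave 238 of 1834 cells and in B2 258 of 2053. Ratios inside a class thus also compare different clusters, and the part of this was not tested. Between the classes, Cdh2 was lower in PDGFRA-high cells in each of the 6 sets, with log2 ratios of -0.26, -0.43 and -1.22 in A1, A2 and A3 and of -0.17, -0.79 and -0.25 in B1, B2 and B3. The intervals of A1, B1 and B3 included 0.

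Cdh11 was level across sets of an ending. It was at 267, 257 and 262 CPM in A1, A2 and A3 and at 205, 199 and 209 in B1, B2 and B3. The log2 ratio of the -3 set over its partners was 0.00 (-0.06 to 0.06) in A and 0.05 (-0.03 to 0.13) in B. The sign of so small a ratio depends on how counts are scaled: it was -0.06 in A and -0.03 in B when mitochondrial and ribosomal protein genes were left out of the totals. Inside the classes Cdh11 was less level. Its ratio in PDGFRA-high cells was -0.24 (-0.34 to -0.14) in A and 0.22 (0.05 to 0.40) in B. In other mesenchyme it was 0.11 (-0.10 to 0.31) in A and 0.23 (0.06 to 0.40) in B. The Ajap1/Dsp cluster, a larger part of that class in B3 than in B1 and B2, had Cdh11 at 297 CPM. The part of that cluster in the ratio of B was not tested. At 2000 UMIs per cell a Cdh11 UMI was present in 40.8%, 39.3% and 35.2% of cells in ending A and in 33.1%, 31.6% and 30.4% in ending B. Unthinned, the shares were 92.2%, 92.7% and 67.6%, and 55.0%, 54.3% and 44.5%. The thinned share of A3 was lower than in A1 and A2 while its CPM was not.

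That level hid a wide spread between the clusters of PDGFRA-high mesenchyme. The Npnt cluster, named for nephronectin, a basement membrane protein, had the lowest Cdh11 of any cluster of at least 50 cells in each ending, at 130.5 CPM (118 to 144) in A and 101 (92.0 to 111) in B. The cluster with Opcml among its leading genes was at 325 CPM in A and 297 (281 to 314) in B, and in A the Aplnr/Bmp3 cluster was higher still at 405 (378 to 433). In A3 the Npnt and Opcml clusters held 461 and 385 cells, and in B3 955 and 913. The Opcml cluster exceeded the Npnt cluster by log2 ratios of 1.32 in A and 1.55 in B. In the separate sets the ratios were 1.35, 1.82 and 1.27 in A1, A2 and A3 and 1.83, 1.42 and 1.53 in B1, B2 and B3, and each interval lay above 0. The clusters were built without the 9 genes and without the other adhesion genes below, but this pair was chosen after its values were seen, so the difference is a description.

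Cdh3 and Cdh13 were rare and uneven. Cdh3 was at 6.90, 7.14 and 5.71 CPM in A1, A2 and A3, and at 2.69, 2.86 and 4.02 in B1, B2 and B3. The -3 set ratio was -0.30 (-0.74 to 0.12) on the log2 scale in A and 0.53 (-0.13 to 1.17) in B, so neither interval leaves out 0. Cdh13 was at 2.75, 2.96 and 11.1 CPM in A and at 1.20, 1.87 and 1.95 in B. A3 stood above A1 and A2, whose intervals did not reach it, by a log2 ratio of 1.96 (1.59 to 2.32), and in B the ratio was 0.33 (-0.63 to 1.23). With a mean below 10 CPM, both genes and Cdh6 stayed outside the rule for calls. The Il1rl1/Npnt cluster held Cdh13 at 26.7 CPM (21.4 to 33.0), the highest of the 16 clusters of A. In the Npnt cluster of B it was at 2.33 CPM.

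No Cdh6 UMI was found in B3 or in the PDGFRA-high cells of ending B. Its level was 4.73, 5.26 and 4.74 CPM in A1, A2 and A3, and 4.88 and 3.57 in B1 and B2. B3 had 0 UMIs in 2189 cells. The floor of 3 UMIs is 0.366 CPM there and 0.137% of cells, and the 95% intervals reached up to 0.450 CPM and 0.168%. Against the 4.19 CPM of B1 and B2 pooled, B3 set at the floor of 3 UMIs would be 11.5-fold lower. Counting error in B1 and B2 is not in that value, and the 95% interval of the log2 ratio reached up to -3.19. The PDGFRA-high class had 0 Cdh6 UMIs in B1, B2 and B3, where it held 243, 317 and 1914 cells and 3 UMIs would be 3.58, 2.75 and 0.435 CPM. The 262 cells of other mesenchyme in B3 also had 0, with a floor of 2.41 CPM and a 95% interval up to 2.96. The same class was at 4.32 CPM (3.04 to 5.95) in B1 and 3.28 (2.23 to 4.66) in B2, so the intervals of B2 and B3 overlapped. In ending A, PDGFRA-high cells had Cdh6 at 4.67, 2.97 and 4.67 CPM in A1, A2 and A3, and 39 of the 44 UMIs of A3 lay in its Il1rl1/Npnt cluster. The glia-like cells held 24.5% of the Cdh6 UMIs of B1 and 17.5% of those of B2. Without them Cdh6 was at 3.75 CPM in B1 and 2.98 in B2. The highest cluster was a set of 54 cells in A led by Igfbp3 and P2rx1, at 90.4 CPM (64.0 to 124).

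Few UMIs per cell also come from RNA released by other cells. No cell class that should lack all 9 genes was present in numbers. The epithelial gene Epcam, which mesenchyme does not use, is given as a rough guide to released epithelial RNA in each set. Epcam was found in 3.22%, 3.07% and 18.1% of thinned cells in A1, A2 and A3, and in 2.46%, 3.12% and 5.33% in B1, B2 and B3. Markers of another lineage put the sets in another order. The sum of 6 erythroid markers was 25.3, 32.6 and 36.2 CPM in A1, A2 and A3, and 1861, 1790 and 3712 in B1, B2 and B3. Epcam alone thus does not rank the sets by released RNA of all kinds. The thinned shares of Cdh3, Cdh6 and Cdh13 were at most 1.55%, 1.20% and 3.07%, and in every set they lay below the Epcam share of that set. The Cdh2 shares of A3 and B3 lay below it as well. The Alcam share lay below it in A3, B2 and B3, was equal to it in A2 (3.07% each) and was above it in A1 and B1 with overlapping intervals. The background of a gene depends on its own released RNA, so the Epcam share sets no limit for the other genes. In B3, for example, Epcam was in 5.33% of thinned cells and Cdh6 in 0%. By shares alone, whether these low values are background or RNA of the cells themselves cannot be decided. Between the Opcml and Npnt clusters, the log2 ratio of Epcam was -0.04 (-0.28 to 0.20) in A3 and -0.45 (-0.87 to -0.04) in B3. That of Alcam was -0.93 (-1.27 to -0.59) in A3 and -0.58 (-1.12 to -0.04) in B3. In A3 the ratio was -5.04 (-10.4 to -2.48) for Cdh6, -1.89 (-2.72 to -1.14) for Cdh13 and 1.13 (0.33 to 1.97) for Cdh2. In B3 it was 0.10 (-1.55 to 1.80) for Cdh13 and 0.50 (-0.10 to 1.11) for Cdh2. The part of released RNA in these values was not tested.

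Ncam1, known in the gut from nerves, muscle and mesenchyme, differed little between sets of an ending. It was at 228, 230 and 260 CPM in A1, A2 and A3 and at 281, 301 and 290 in B1, B2 and B3. The log2 ratio of the -3 set was 0.18 (0.12 to 0.25) in A, above the spread between A1 and A2 (-0.01), and -0.01 (-0.08 to 0.06) in B. Within PDGFRA-high cells the ratio was 0.37 (0.25 to 0.49) in A and -0.14 (-0.27 to -0.01) in B. Within other mesenchyme it was -0.20 (-0.45 to 0.03) in A and -0.21 (-0.38 to -0.05) in B. Thinned shares were 35.5%, 37.3% and 39.4% in A and 41.6%, 43.1% and 40.2% in B. Across clusters Ncam1 ranged from 110 CPM in the Hist1h2bc/Klhl6 cluster to 580 CPM (555 to 606) in the Col6a5/Wfdc1 cluster of A, a 5.28-fold range. A cycling cluster that shares Col6a5 among its leading genes was at 511 CPM. In B the range was narrower, from 221 CPM in the Kcnk13/Opcml cluster to 388 in the Npnt cluster.

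**Figure D2:**
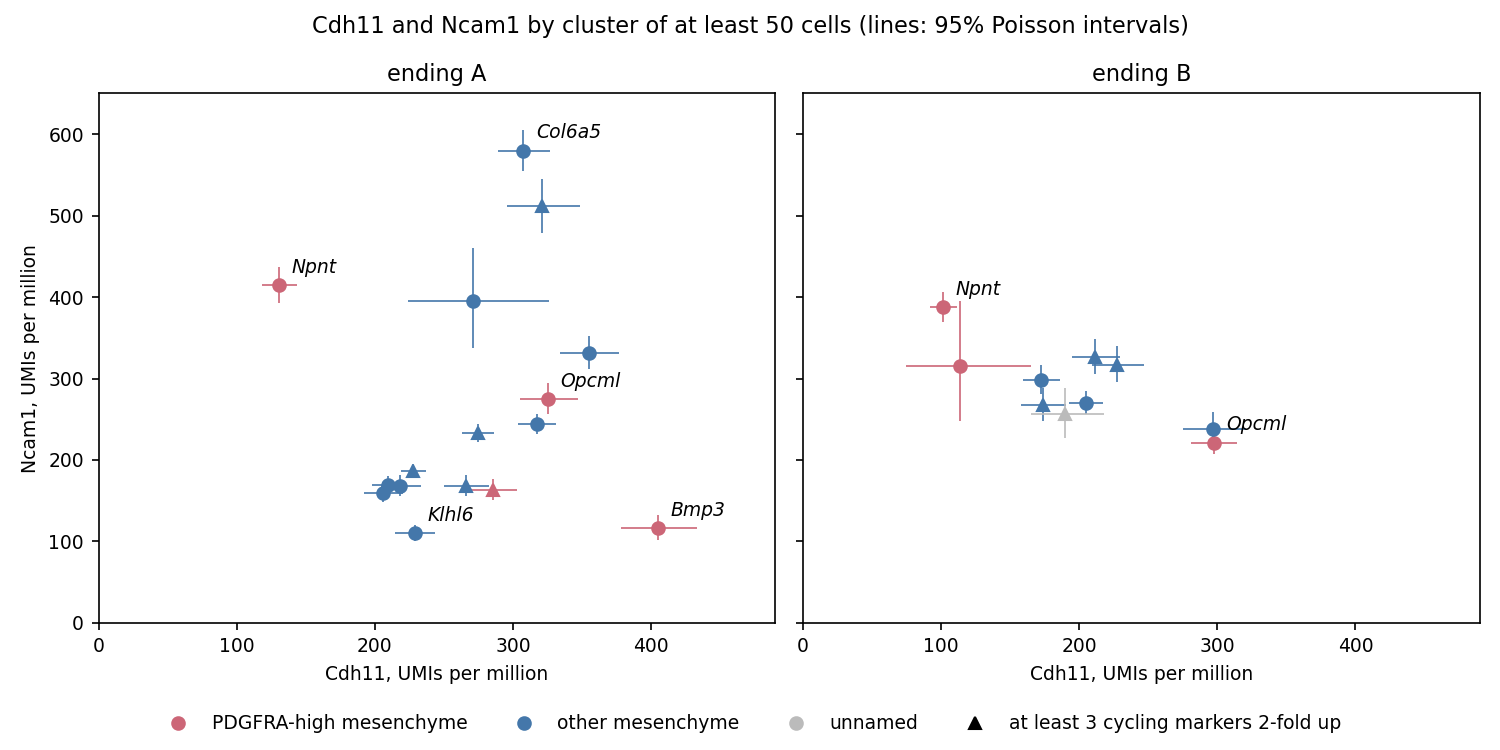
Cdh11 (x axis, CPM) against Ncam1 (y axis, CPM) in the clusters of at least 50 cells of each ending, coloured by class, with 95% Poisson intervals as lines and triangles for cycling clusters. The Npnt cluster has the lowest Cdh11 in each ending (130.5 and 101), with Ncam1 at 414 and 388, and the Opcml cluster has more Cdh11 (325 and 297) and less Ncam1 (275 and 221).

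Ncam1 ran opposite to Cdh11 in the same pair of PDGFRA-high clusters. Its log2 ratio of the Opcml over the Npnt cluster was -0.59 (-0.72 to -0.47) in A and -0.81 in B. In single sets it was -0.68 for A3 and -0.38, -0.92 and -0.84 for B1, B2 and B3, but 0.05 (-0.55 to 0.66) in A1 and -0.22 (-0.76 to 0.32) in A2, where the clusters held 12 to 23 cells. Over all clusters no opposite course was seen in A, where Spearman's rho between Cdh11 and Ncam1 was 0.22 over 16 clusters, and in B it was -0.54 over 10. These clusters share cells of the same libraries, and the values are descriptions. Alcam and Cdh13 were also lower in the Opcml cluster of A, by log2 ratios of -0.83 and -1.88, and Cdh2 was higher there by 1.46, at 18.0 against 6.52 CPM. In A3, Ncam1 was present in 28.2% (22.9 to 34.1) of thinned cells without a Pdgfra UMI, in 37.6% with 1 to 2 and in 48.9% (43.9 to 53.9) with 3 or more. No such steady rise was seen in B3 (40.9%, 38.4% and 48.0%) or A1 (35.8%, 34.1% and 41.5%), and in B1 the shares were in falling order (42.1%, 39.6% and 36.4%). In A2 (37.2%, 37.5% and 45.5%) and B2 (42.5%, 44.6% and 55.6%) they were in rising order. Outside A3 and B3 only 22 to 41 cells had 3 or more Pdgfra UMIs, and the intervals of their 3 shares overlapped within each set.

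Alcam was higher in A3 but not in B3. It was at 18.0 CPM (16.5 to 19.5) in A1, 15.7 (14.3 to 17.3) in A2 and 42.3 (38.2 to 46.7) in A3, and at 16.4, 19.2 and 18.8 in B1, B2 and B3. The log2 ratio was 1.32 (1.15 to 1.49) in A, which passed the call, and 0.07 (-0.21 to 0.34) in B. The difference in A was seen in both classes. In PDGFRA-high cells the ratio was 0.88 (0.53 to 1.23), and in other mesenchyme, on 58 cells of A3, it was 1.43 (0.87 to 1.93). Of those 58 cells, 10 lay in a cluster of 19 cells led by Cdo1 and Chodl, the highest of A in Alcam at 103 CPM. That cluster gave 4 of the 2291 cells of other mesenchyme in A1 and 5 of 1989 in A2. Its part in the ratio was not tested. In A3 Alcam was at 42.1 CPM in PDGFRA-high cells and at 44.3 in other mesenchyme. In B the ratios were -0.13 and 0.26, with intervals that included 0. In thinned cells of A3 the share with Alcam was 7.24%, against 3.62% and 3.07% in A1 and A2, and by Pdgfra UMIs (0, 1 to 2, 3 or more) it was 3.44%, 7.02% and 10.03%. In B3 the same shares were 3.38%, 4.33% and 2.67%, and their intervals overlapped, as they did in each of the other 4 sets. Epithelial markers moved with it in part: the sum of 8 markers, all detected, was 52.1, 50.3 and 363 CPM in A1, A2 and A3 and 41.5, 41.8 and 114 in B1, B2 and B3. Other lists were higher in A3 as well. In A1, A2 and A3 the sums were 12.1, 14.6 and 91.8 CPM over 7 blood markers, 11.8, 11.7 and 51.8 over 5 mesothelium markers and 24.8, 27.1 and 72.8 over 7 endothelium markers. In B1, B2 and B3 they were 36.4, 32.7 and 77.8, 5.78, 6.25 and 13.8, and 32.5, 30.5 and 68.0. The part of these lists in the Alcam difference was not tested. Among cells without an Epcam UMI, an alternative added after the data were seen, the Alcam ratio in A was 1.37. The Il1rl1/Npnt cluster had the highest Alcam of the clusters of at least 50 cells in A, at 78.0 CPM (68.6 to 88.3). In B it was the cycling Gdf10/Cdkn2c cluster, at 50.2 CPM (42.2 to 59.3).

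The catenins changed less, and not alike. Ctnnb1 was at 301, 303 and 274 CPM in A1, A2 and A3 and at 193, 206 and 312 in B1, B2 and B3. Its log2 ratio was -0.14 (-0.20 to -0.08) in A and 0.64 (0.57 to 0.71) in B, under the 2-fold rule in each case. In B the ratio was 0.39 within PDGFRA-high cells and 0.64 within other mesenchyme. Ctnna1 was at 204, 191 and 239 CPM in A and at 132, 131 and 158 in B, with ratios of 0.28 (0.21 to 0.34) and 0.27 (0.17 to 0.36), above the set 1 over set 2 values of 0.09 and 0.00. Within PDGFRA-high cells its ratios were -0.06 and -0.12, with intervals that included 0. Across clusters the catenins ranged 1.51-fold to 1.83-fold, against 12.1-fold for Cdh2 in A.

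**Figure D3:**
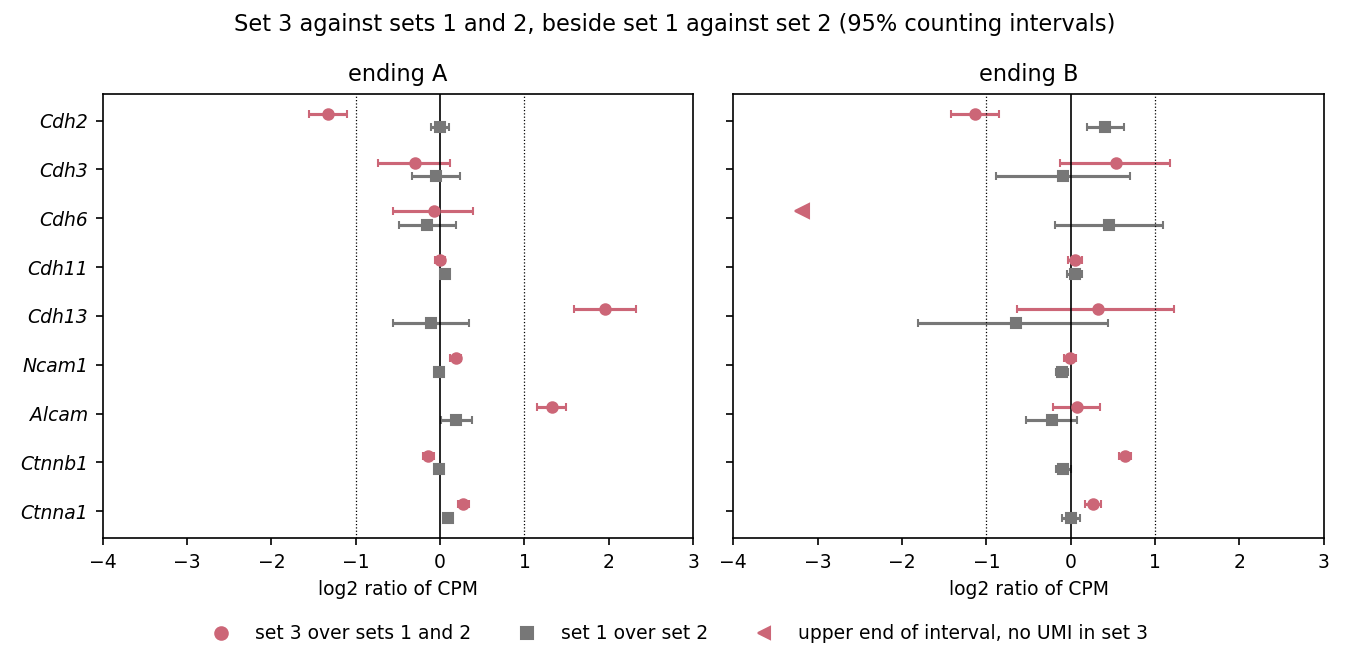
Log2 ratio of CPM (x axis) for the 9 genes in each ending, set 3 over sets 1 and 2 (circles) beside set 1 over set 2 (squares), with 95% counting intervals and dotted lines at 2-fold. Cdh2 lies at -1.33 and -1.13, Alcam at 1.32 and 0.07, and the triangle marks -3.19, the upper end of the 95% interval for Cdh6 in B, which had no UMI in B3.

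In each ending 6 of the 9 members passed the minimum for calls. In A, 1 of the 6 was called higher (Alcam) where 7.61% of all 8971 genes tested were, and 1 was called lower (Cdh2) where 5.16% were. In B, 0 of the 6 were called in either direction, where 6.59% of 8058 genes were higher and 5.09% lower. Counts this small do not set the members apart from other genes. The median log2 ratio was 0.09 in A and 0.06 in B over the members tested, and -0.05 and 0.11 over all genes tested.

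Cdh2 and Cdh11 were then compared cell by cell, to see whether the same or different cells held them. Among the 5713 cells of ending A thinned to 2000 UMIs, 125 held both genes, against 155 from the product of their shares within each set, a ratio of 0.81 (0.67 to 0.96). Among 6876 cells of ending B, 100 held both against 108, a ratio of 0.93 (0.76 to 1.13). Cells with Cdh11 held Cdh2 in 6.29%, 5.62% and 3.87% of cases in A1, A2 and A3, and cells without it in 8.80%, 9.18% and 2.89%. In B1, B2 and B3 the shares were 4.82%, 5.32% and 3.48% with Cdh11 and 7.01%, 5.19% and 2.97% without. The low ratio of A did not hold at other depths: it was 1.28 (0.98 to 1.64) at 1000 UMIs and 0.98 (0.87 to 1.10) at 3000. With all UMIs, comparing cells within 10 bins of depth of their set, it was 0.99 (0.95 to 1.04) in A and 0.95 (0.86 to 1.06) in B. This comparison was added after the data were seen, and as 92.2% of A1 cells then hold Cdh11, the ratio has little room above 1 in A. Neither an excess nor a lack of shared cells is read from these values.

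**Figure D4:**
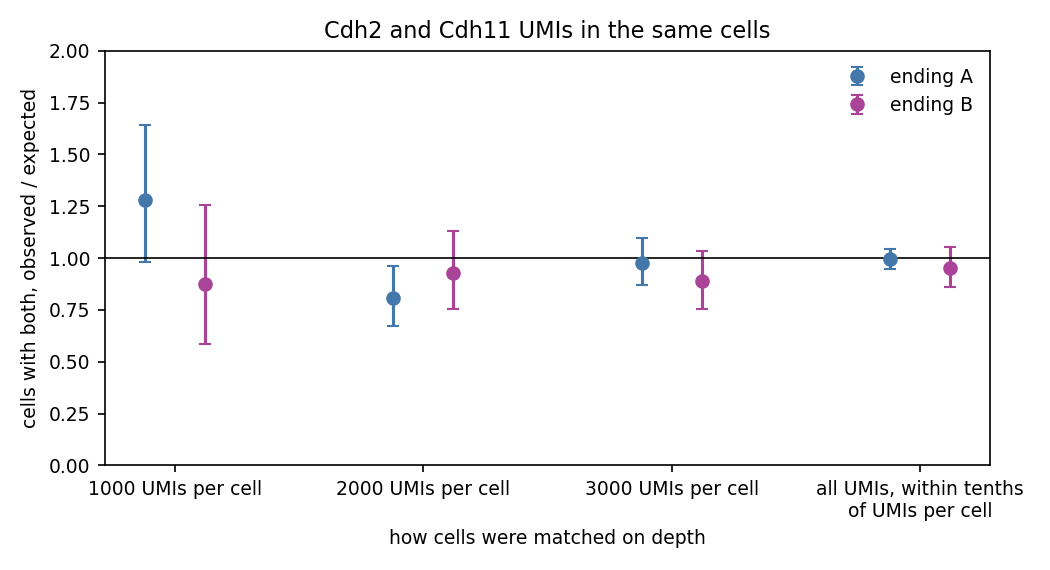
Cells with both Cdh2 and Cdh11, observed over the product of their shares (y axis, from 0), by how cells were matched on depth (x axis), for endings A and B, with 95% Poisson intervals as lines. Values lie from 0.81 to 1.28 in A around the line at 1, with no direction kept over depths.

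The classes gave different directions. Within PDGFRA-high mesenchyme the ratio of shared cells was 1.24 (0.77 to 1.89) in A and 1.23 (0.84 to 1.75) in B, and in other mesenchyme 0.75 (0.62 to 0.91) and 0.82 (0.63 to 1.05). Of these only the A value of other mesenchyme had an interval without 1. Over clusters, rho between Cdh2 and Cdh11 was -0.25 in A and -0.04 in B. Of the other 35 pairs of members, Cdh6 with Ncam1 was found together in 33 cells of A against 21.5 from the product, a ratio of 1.54 (1.06 to 2.16), and in B the ratio was 0.97. Cdh2 with Alcam gave 7 cells against 14.6 in A, a ratio of 0.48 (0.19 to 0.98), and 1.34 in B. These 2 pairs were picked out after their values were seen.

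The genes with the course over clusters most like that of Cdh2, by Spearman's rho among 6760 genes with at least 20 CPM, were Rbm3 (rho of 0.97), Metrn (0.93) and Eri1 (0.93) over the 16 clusters of A. In B they were Vars (0.96), Phgdh (0.95) and Nudt5 (0.93) over 10 clusters and 5735 genes. For Cdh11 they were Spats2l (0.93), Gpc3 (0.87) and Creb5 (0.86) in A, and CAAA01118383.1 (0.93), Gm16286 (0.92) and Hmg20b (0.85) in B. No gene was named in both endings, and clusters share depth and libraries.

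A list of 68 other adhesion genes gives the setting. Of these, 24 were tested in A and 23 in B. In A 9 were called higher and 1 lower, and in B 8 higher and 1 lower, where 7.61% of all genes tested were higher and 5.16% lower in A, and 6.59% and 5.09% in B. The median log2 ratios were 0.79 and 0.78, against -0.05 and 0.11 over all genes tested. The minimum of 10 CPM is a mean that includes the -3 set, so a listed gene that was low elsewhere entered only where the -3 set was high: 4 of the 9 higher genes of A (Cdh4, Cdh17, Mcam and Jam2) and 2 of the 8 of B (Nectin1 and Dsp) were under 10 CPM in the pooled -1 and -2 sets. The counts and medians are thus partly set by that filter, and nothing about the list is read from them. The cadherin Cdh4 was higher in the -3 set of both endings, by log2 ratios of 3.81 and 2.14, and had the highest mean over sets of the 18 genes of the Cdh series in the list. The junctional linker Jup (1.88 and 1.51), the giant cadherin Fat4 (1.79 and 1.62) and the immunoglobulin-type Cadm1 (2.15 and 1.46) were also higher in both. Vcam1, which binds integrins of white blood cells, was lower in both, by -3.15 and -3.04. At 3.66 CPM in A3 and 2.56 in B3, against 37.1 in A1 and 21.6 in B1, it had the lowest ratios of the listed genes tested. The families' most abundant genes beside these were Actn1 (0.53 and 0.76) and Pkp4 (0.24 and 0.81), neither called. In A the list also held Cdh17, an intestinal epithelial cadherin, at 2.47, which stands beside the epithelial markers of A3 above.

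**Figure D5:**
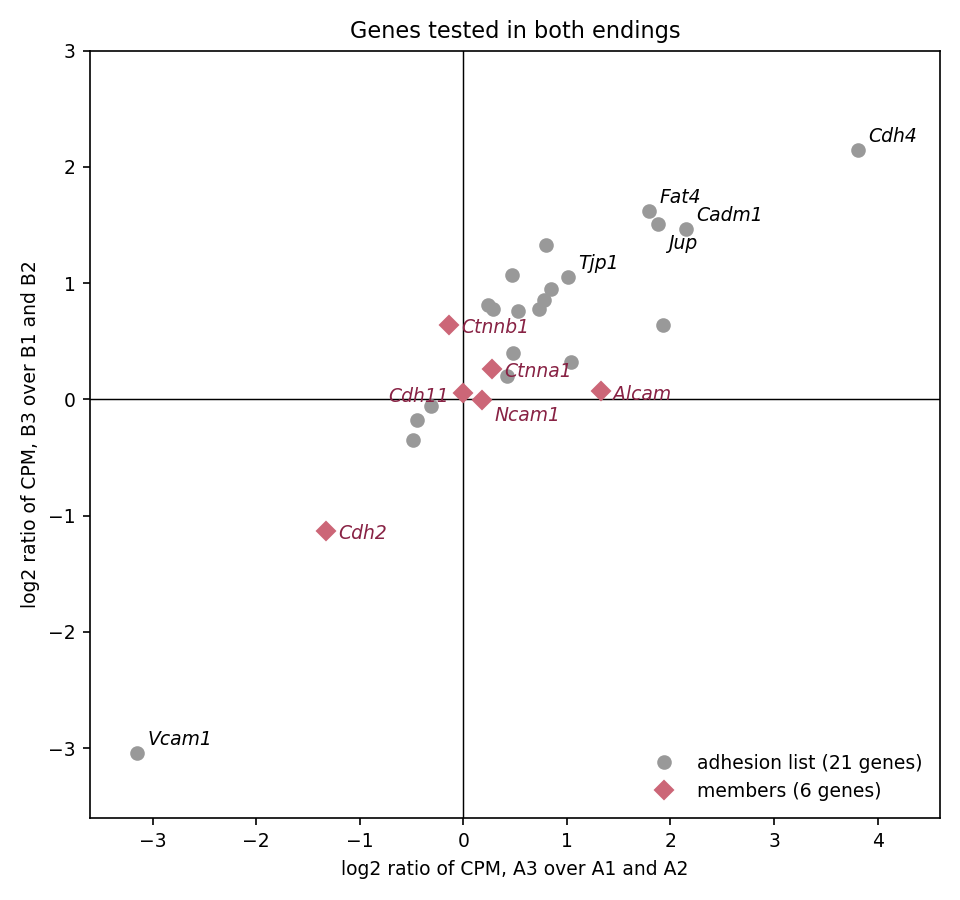
Log2 ratio of CPM of the -3 set over the other sets in ending A (x axis) against ending B (y axis), for 21 genes of the adhesion list (grey) and 6 members (red) tested in both endings. Cdh4, Fat4, Jup and Cadm1 are above 0 in both, Vcam1 and Cdh2 are below 0 in both, and Cdh11 and Ncam1 are near the centre.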

How the data were processed

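The authors deposited 1 matrix whose values are raw UMI counts, whole numbers by gene and cell, per the file headers. The submitters' processing notes name Cell Ranger 2.1.1, Seurat and mm10, with no role or order, and the authors' cell filter is not given in the sources used here. The endings rest on partly different gene lists, so levels were compared by ratio only within an ending. The 9 genes and the lists of adhesion genes and markers were chosen with earlier results of these data known.

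Kept cells had at least 1000 genes, which 108 lacked, and at most 5% of UMIs from mitochondrial genes, which 367 exceeded. Also removed were 60 doublets called by Scrublet in scanpy (0.404% of ending A and 0.501% of ending B). So low a rate means the caller cannot be taken to have worked in A, and doublets may remain in both endings. CPM is the summed UMIs of a gene per 1000000 UMIs of its set. Intervals are exact 95% Poisson, Clopper-Pearson or conditional binomial intervals from scipy, and cover counting error only. Shares of cells at matched depth come from cells thinned to 2000 UMIs without replacement. Cells were clustered per ending without the members and the adhesion list, from 2000 variable genes, 30 principal components and 15 neighbours, with leidenalg at resolution 1. A cluster was named PDGFRA-high with 3 markers at 2-fold or more, another lineage with 3 markers at 4-fold, and other mesenchyme with 3 mesenchyme markers at 100 CPM, a rule set after the data were seen. The scripts were tested on simulated data. Genes named in the text are the 9 members, listed adhesion genes called in both endings, the most abundant gene of each family, and the 3 genes most like Cdh2 and Cdh11 over clusters; others were chosen after their values were seen. Alternatives covered filters, scaling, thresholds, depth and clustering. Promoters and gene spans are from RefSeq, GRCm38.p6. The lipid barcode tables were not used here.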

Additional observations from a re-analysis of the deposited data

Results flagged for a closer look

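For Cdh3 and Ctnnb1 the -3 set lay on one side of both partner sets in A and on the other side of both in B, and the difference between endings was not tested. For Cdh3 the log2 ratio was 0.83 higher in B than in A, from -0.30 to 0.53, and each of these intervals included 0. For Ctnnb1 it was 0.78 higher in B, from -0.14 to 0.64, and neither interval included 0. The pooled ratios of Ncam1 also differed in sign (0.18 and -0.01), but B3 lay between B1 and B2.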

How the results depend on the processing

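No paired analysis was possible because the barcode sets carry no replicate numbers and no test was made. Under the alternatives 28 values of the main results moved beyond their interval or by more than 1.5 times and 98 did not, and no called value changed direction. The Cdh11 ratio, near 0, became -0.14 in A and -0.032 in B as a mean of per-cell CPM, -0.052 in B with scaling by the median ratio of genes, and -0.065 in A and -0.029 in B without mitochondrial and ribosomal protein genes. The lower calls in B became 1, Cdh2, with each of these last 2 scalings, against B1 alone and at 1.5-fold, and 1, Cdh6, with no CPM minimum. The higher calls in B became 1, Ctnnb1, at 1.5-fold. In A the higher calls became 2, Alcam and Cdh13, with no minimum, and both directions gave 0 at 50 CPM. The ratio of cells with both Cdh2 and Cdh11 in A became 1.28 at 1000 UMIs, 0.98 at 3000, 1.02 unthinned and 0.99 within 10 bins of depth, and among PDGFRA-high cells it was 1.24 in A and 1.23 in B. The Opcml over Npnt ratio became 2.06 and 2.19 for Cdh11 and -1.06 and -1.13 for Ncam1 (A and B) at resolution 2, and 1.94 and 1.90, and -0.91 and -0.94, with 1000 variable genes. There the clusters with the highest Npnt and Opcml levels were taken, and resolution 0.5 joined them in A (918 cells), so it gave no value. Apart from settings that change thresholds or depth by construction, the cause of these shifts was not tested. Depth limits Cdh3, Cdh6 and Cdh13 most.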

Other observations

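Cells with Gdf10 among the leading genes of their cluster had the highest Alcam level in each ending when small clusters are counted. In A these were 19 cells led by Cdo1, Chodl and Gdf10, at 103 CPM (67.4 to 151), 10 of them from A3. In B they were the 440 cells of the Gdf10/Cdkn2c cluster. Both clusters are cycling, with 4 and 6 cycling markers raised at least 2-fold. The other cycling clusters with at least 5 such markers ranged from 8.61 to 23.5 CPM in A.

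The cluster of 54 cells led by Igfbp3 and P2rx1, highest in Cdh6, also had Alcam at 45.2 CPM (27.2 to 70.6), Ncam1 at 395 CPM (337 to 460) and Cdh13 at 16.7 CPM (6.70 to 34.3). It held 25 cells of A1, 25 of A2 and 4 of A3, and Cdh2 was at 11.9 CPM (3.86 to 27.8) in it. These clusters were picked out after their values were seen.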
